A study of Homo sapiens with 12 samples.

Results

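The survival and death genes of the BCL2 family examined here were 10, namely BCL2, BCL2L1, BCL2L2, MCL1, BAK1, BCL2L11, BID, BAD, BMF and PMAIP1. They were chosen by name as anti-apoptotic, effector and BH3-only members that were not in a list of p53 targets, and all 10 were present among the 60675 genes of the count files. Absence from that list does not show that a gene is outside p53 control, which was not tested. All 10 also passed the filter on low counts in each fit. Each value below is a level of polyadenylated RNA, and protein and cell death were not measured in these libraries.

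The BCL2 family decides whether the outer membrane of the mitochondrion stays intact. Anti-apoptotic members (BCL2, BCL2L1, which encodes BCL-XL, BCL2L2, which encodes BCL-W, and MCL1) hold the pore-forming effectors, among them BAK1, in check. BH3-only members answer stress signals: BCL2L11 (BIM) and BID can bind and activate effectors, while BAD, BMF and PMAIP1 (NOXA) mainly occupy the anti-apoptotic proteins, with BAD known to bind the BCL2 and BCL-XL side and PMAIP1 to favour MCL1.

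The study treated LNCaP, a human prostate cancer line that grows in response to androgen, and its castration-resistant derivative LNCaP:C42 (C4-2 below), each a single line with no engineered allele. The synthetic androgen R1881 (1 nM) was present in every group, controls included, for 72 h in medium with charcoal-stripped serum, and the methods give DMSO as the control vehicle. There were 6 groups of 2 libraries. In C4-2 these were R1881 alone, namoline (50 µM, against the histone demethylase KDM1A), TCE-5002 (a KDM7A-selective compound) and both compounds together, called the combination. By the study's account TCE-5002 also targets KDM7B (PHF8) and KDM2A. LNCaP cells had an R1881 group and a combination group. The treatment field of the labels describes siRNA, so groups were taken from the sample titles. The series text lists TCE-5002 at 100 µM and the study's methods list a lower dose, so its dose here is uncertain.

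Library totals ran from 14791602 to 20690819 counts. The libraries labelled LNCaP did not carry the marker pattern of a luminal prostate line as strongly as C4-2 did. The summed level of 12 luminal epithelial markers was 440 to 1040 CPM (counts scaled to library size) in the 4 libraries labelled LNCaP and 2620 to 6450 CPM in the 8 C4-2 libraries, although all 12 reached 1 CPM in both. The epithelial adhesion gene EPCAM averaged 3.75 CPM with R1881 in the libraries labelled LNCaP and 139 CPM in C4-2, whereas the mesenchymal filament gene VIM averaged 686 and 2.45 CPM. Single markers differed from this pattern. Of the luminal markers only KLK3 was higher with R1881 in the libraries labelled LNCaP (376 and 217 CPM). Of the mesenchymal markers COL1A1 was lower there (4.44 and 50.1 CPM), and COL1A2 was under 1 CPM in both lines. The 3 basal markers stayed under 1 CPM throughout, and the sum of 4 immune markers was at most 4.05 CPM. In addition, the count column of LNCaP combination replicate 1 is headed with namoline only, while its label names the combination. It was kept under its label, and some of the results are also given without it. Differences between replicates followed GC content across genes most in the C4-2 TCE-5002 pair, with Spearman rho of -0.7 across 14350 genes, and these genes are not independent replicates. GC content was taken from the longest transcript of each gene in GENCODE release 29, not from the counted exons, and the GC correction below used the same values. By this measure BAD has the highest GC content of the 10 genes (66.3%) and PMAIP1 the lowest (37.2%).

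Levels are CPM after TMM scaling over the 12 libraries. Changes are log2 fold changes ± standard error (SE) from edgeR's quasi-likelihood test, with p-values adjusted by the Benjamini-Hochberg method over all genes tested. A gene is said to have risen or fallen when its adjusted p was under 0.05, and the study's further condition of a 2-fold change is counted beside it. Since RNA came from whole cultures, fewer cells of one kind and less RNA per cell cannot be told apart.

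**Figure D1:**
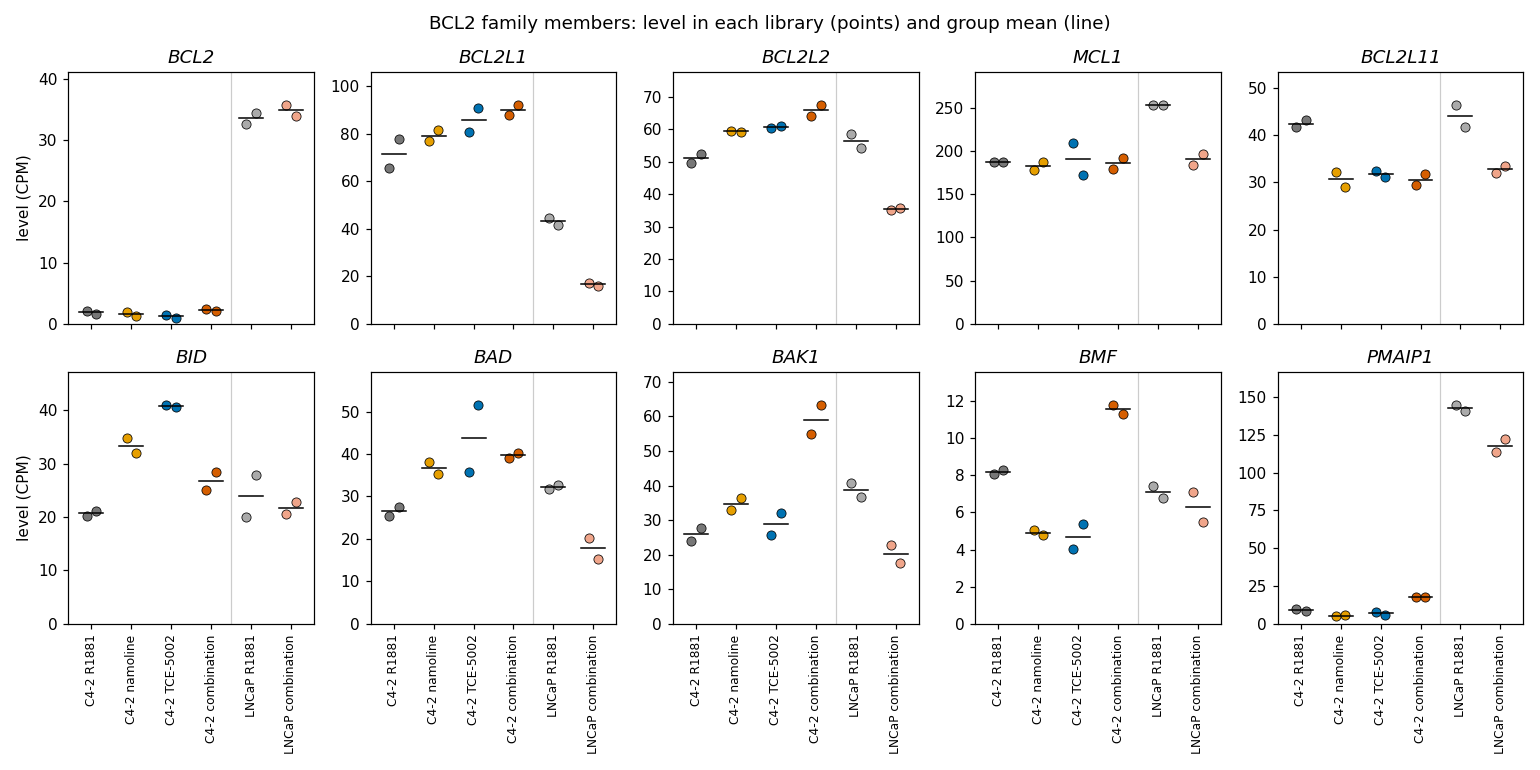
Level (CPM, linear axis from 0) of each of the 10 BCL2 family genes in each of 12 libraries, shown as points by group, with the group mean as a line and n = 2 per group. BCL2 and PMAIP1 lie far lower in C4-2 than in the libraries labelled LNCaP. BAK1, BMF, PMAIP1 and, by a smaller margin, BCL2L2 are highest within C4-2 in the combination libraries.

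Among the anti-apoptotic genes, MCL1 had the highest level in all 6 groups in CPM and per kilobase of exon. Per kilobase of exon that no other gene shares, BCL2L1 averaged above MCL1 in C4-2 with the combination (47.7 and 42.5 CPM), while with TCE-5002 (45.4 and 43.8 CPM) and with namoline the pair differed by less than the spread between replicates. MCL1 (ENSG00000143384, chr1:150574551-150579738, minus strand) stood at 188 and 187 CPM in the C4-2 R1881 libraries, 178 and 188 CPM with namoline, 210 and 172 CPM with TCE-5002 and 180 and 192 CPM with the combination. The treated libraries overlapped the R1881 libraries in each case. Its log2 fold changes against R1881 were -0.05 ± 0.11 for namoline, 0.03 ± 0.11 for TCE-5002 and -0.04 ± 0.11 for the combination, with adjusted p of 0.78, 0.865 and 0.803. MCL1 protein is short-lived, and its RNA is only 1 of the layers at which it is controlled. Across the LNCaP-labelled libraries it measured 254 and 254 CPM with R1881 and 184 and 197 CPM with the combination, a fall of log2 -0.35 ± 0.1 (adjusted p = 0.00312).

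BCL2L1 (ENSG00000171552, chr20:31664452-31723989, minus strand), the gene of BCL-XL, moved in opposite directions under the combination in the 2 lines as labelled. In C4-2 it measured 65.6 and 77.7 CPM with R1881, 76.9 and 81.7 CPM with namoline, 80.7 and 91 CPM with TCE-5002, and 88.1 and 92.3 CPM with the combination. The combination libraries lay above both R1881 libraries, and BCL2L1 rose by log2 0.31 ± 0.12 (adjusted p = 0.0405), whereas namoline (0.13 ± 0.12, adjusted p = 0.416) and TCE-5002 (0.26 ± 0.12, adjusted p = 0.0946) did not pass the test. TCE-5002 passed with a replicate block (adjusted p = 0.0397) and without TCE-5002 replicate 1 (0.34, adjusted p = 0.00817). The C4-2 combination call was lost without any 1 of the R1881, namoline or combination libraries, at log2 0.19 to 0.42 over all libraries left out. Within the LNCaP-labelled libraries BCL2L1 fell from 44.7 and 41.6 CPM to 17.3 and 16 CPM, a log2 change of -1.32 ± 0.13 (adjusted p = 2.56e-10) and the only 2-fold change of the 10 genes in those cells. Without the library with the namoline-only heading the change was -1.37 ± 0.15. Of its exon bases, 42.97% are shared with the antisense gene ABALON, and fragments on shared bases were counted for neither gene. ABALON changed by -3.24 ± 0.38 in the same comparison (adjusted p = 8.01e-09), and its part in the BCL2L1 change was not tested.

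BCL2L2 (ENSG00000129473, chr14:23298790-23311759, plus strand), the gene of BCL-W, was also higher with the combination in C4-2 and lower with it in the libraries labelled LNCaP. It stood at 49.7 and 52.4 CPM with R1881, 59.6 and 59.1 CPM with namoline, 60.5 and 61.1 CPM with TCE-5002 and 64.2 and 67.6 CPM with the combination in C4-2. All 6 treated libraries lay above both R1881 libraries, but the combination alone passed the test (log2 0.34 ± 0.11, adjusted p = 0.0173), against 0.2 ± 0.11 for namoline (adjusted p = 0.169) and 0.25 ± 0.11 for TCE-5002 (adjusted p = 0.0845). With GC correction namoline (0.24, adjusted p = 0.0278) and TCE-5002 (0.29, adjusted p = 0.00891) passed too, as did TCE-5002 without either of its own libraries and namoline without TCE-5002 replicate 2. The combination call was lost when either R1881 or either combination library was left out (0.31 to 0.38). For the LNCaP-labelled libraries it went from 58.5 and 54.1 CPM to 35.2 and 35.6 CPM, a fall of log2 -0.61 ± 0.12 (adjusted p = 3.54e-05). A readthrough gene, BCL2L2-PABPN1, covers 19.41% of its exon bases, and the antisense gene PPP1R3E covers 4.92%.

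BCL2 itself (ENSG00000171791, chr18:63123346-63320128, minus strand), the founding anti-apoptotic member, was close to the detection limit in C4-2. Its raw counts there were 17 to 45 per library, equal to 2.11 and 1.56 CPM with R1881, 1.95 and 1.26 CPM with namoline, 1.45 and 0.911 CPM with TCE-5002 and 2.33 and 2.06 CPM with the combination. No treatment passed the test against R1881 (log2 -0.22 ± 0.35, -0.65 ± 0.36 and 0.22 ± 0.34, adjusted p of 0.662, 0.173 and 0.612), and changes of this size were not detectable at this depth. The libraries labelled LNCaP held 32.7 and 34.5 CPM with R1881 and 35.8 and 34 CPM with the combination, with no change past the test (log2 0.11 ± 0.12, adjusted p = 0.446). The R1881 mean was 18.3 times that of C4-2.

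Per kilobase of exon the balance of the 4 anti-apoptotic genes differed between the lines. In C4-2, MCL1 made up 57.5% and 54.2% of their summed level per kilobase with R1881, BCL2L1 26.5% and 29.8%, BCL2L2 15.8% and 15.9%, and BCL2 0.239% and 0.168%. In the C4-2 combination libraries the MCL1 share was 49.4% and 49.8% and the BCL2L1 share 31.9% and 31.6%. Among the LNCaP-labelled libraries the shift ran the other way, since the BCL2L1 share was 15.3% and 14.5% with R1881 and 8.86% and 7.88% with the combination, while MCL1 went from 65.8% and 67.1% to 71.7% and 73.6%. When only exon bases that no other gene shares were counted, a choice made after the data were seen, BCL2L1 was 37.1% and 40.9% in C4-2 with R1881 and MCL1 46% and 42.5%. On that scale the order was the reverse in the C4-2 combination libraries, with BCL2L1 at 43.1% and 42.8% and MCL1 at 38.0% and 38.4%, and in TCE-5002 replicate 2, with 45.0% and 36.9%. The summed level of the 4 genes per kilobase was 74.9 and 78.8 CPM in C4-2 with R1881 and 83.2 and 88 CPM with the combination, against 88.3 and 86.4 CPM and then 58.8 and 61.4 CPM in the libraries labelled LNCaP.

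**Figure D2:**
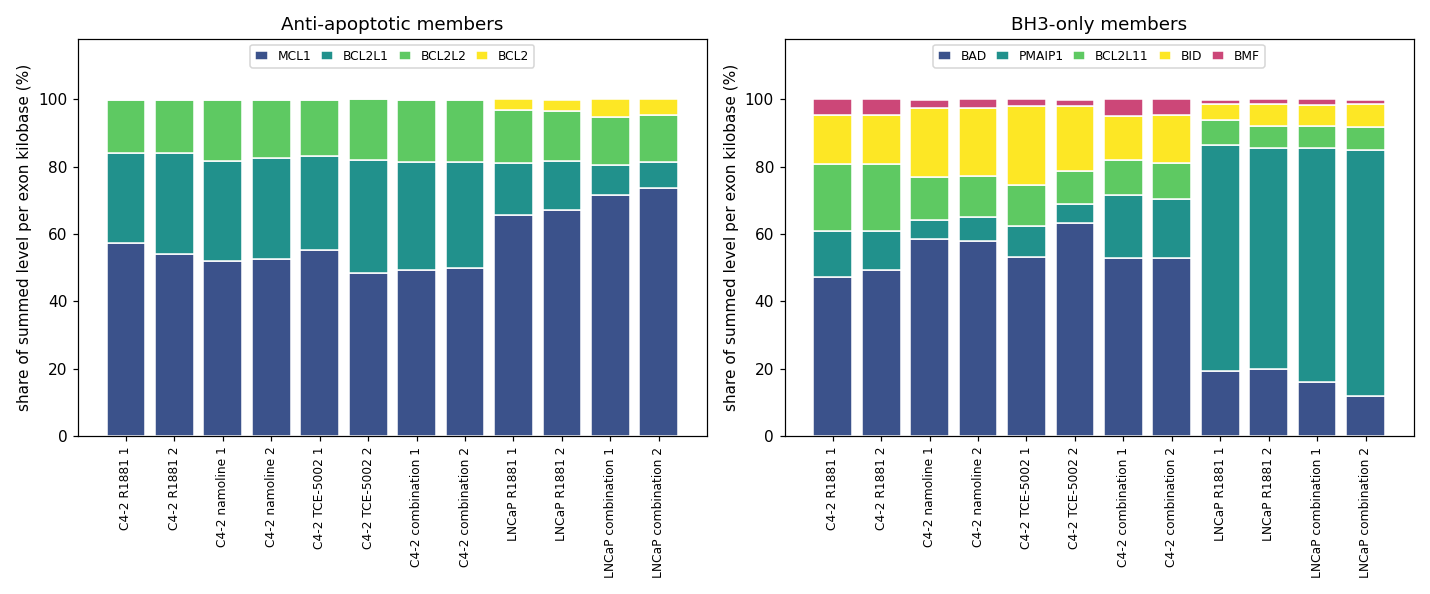
Stacked share (%) of the summed level per exon kilobase held by each anti-apoptotic gene (left) and each BH3-only gene (right) in each of the 12 libraries. MCL1 holds 48.4% to 73.6% of the anti-apoptotic sum, and PMAIP1 holds 65.7% to 73.1% of the BH3-only sum in the libraries labelled LNCaP but 5.48% to 18.6% in C4-2.

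BAK1 (ENSG00000030110, chr6:33572547-33580293, minus strand), the pore-forming effector of the set, showed the largest rise under the combination in C4-2. It measured 23.9 and 27.8 CPM with R1881, 32.8 and 36.4 CPM with namoline, 25.7 and 32 CPM with TCE-5002, and 54.8 and 63.4 CPM with the combination. Both combination libraries lay above the other 6, and the mean went from 25.9 ± 2.74 to 59.1 ± 6.05 CPM (SD, n = 2). The rise was log2 1.17 ± 0.15 (adjusted p = 9.62e-06) and was the only 2-fold change among the 10 genes in that comparison. The combination also exceeded namoline (0.76 ± 0.14, adjusted p = 0.000306) and TCE-5002 (1.01 ± 0.14, adjusted p = 2.53e-05). The smaller rise with namoline alone (0.41 ± 0.15, adjusted p = 0.0406) was lost with DESeq2 and without any 1 of the R1881, namoline or combination libraries, and TCE-5002 alone gave 0.16 ± 0.15 (adjusted p = 0.411). Across the LNCaP-labelled libraries the direction was the opposite, with 40.8 and 36.7 CPM falling to 22.8 and 17.7 CPM (log2 -0.88 ± 0.14, adjusted p = 1.37e-06).

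PMAIP1 (ENSG00000141682, chr18:59899948-59904306, plus strand), the gene of NOXA, was lower with a single inhibitor and higher with both in C4-2. Its level was 9.64 and 8.51 CPM with R1881, 4.85 and 5.81 CPM with namoline, 7.87 and 5.84 CPM with TCE-5002, and 18 and 17.4 CPM with the combination. No library of either single treatment overlapped the R1881 libraries or the combination libraries. PMAIP1 fell with namoline (log2 -0.79 ± 0.2, adjusted p = 0.00594), did not pass with TCE-5002 (-0.41 ± 0.19, adjusted p = 0.107) and rose with the combination (0.93 ± 0.18, adjusted p = 0.000552). The namoline call was lost without R1881 replicate 1 or namoline replicate 1 (-0.93 to -0.68). In contrast, TCE-5002 passed without TCE-5002 replicate 1 (-0.65). Within the LNCaP-labelled libraries it stood at 145 and 141 CPM with R1881 and 114 and 122 CPM with the combination, with log2 -0.21 ± 0.1 (adjusted p = 0.0669). It passed with GC correction (-0.40, adjusted p = 7.8e-05). Without LNCaP combination replicate 2 the change was -0.26. Without replicate 1, the library with the namoline-only heading, it was -0.17.

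BMF (ENSG00000104081, chr15:40087890-40108892, minus strand), whose protein is otherwise held at the cytoskeleton, had the same shape at a lower level. It measured 8.05 and 8.31 CPM with R1881, 5.03 and 4.8 CPM with namoline, 4.04 and 5.36 CPM with TCE-5002, and 11.8 and 11.3 CPM with the combination. The 4 groups did not overlap apart from the pair of single treatments. BMF fell with namoline (log2 -0.75 ± 0.2, adjusted p = 0.00767) and with TCE-5002 (-0.8 ± 0.19, adjusted p = 0.00471) and rose with the combination (0.47 ± 0.18, adjusted p = 0.0406). The namoline call was lost without R1881 replicate 1 or namoline replicate 2. For the rise, DESeq2 gave an adjusted p of 0.0989 and the call was lost without any 1 of the R1881, namoline or combination libraries. Against namoline and against TCE-5002 the combination was higher by 1.22 ± 0.19 and 1.27 ± 0.19 (adjusted p of 6.24e-05 and 4.16e-05). For the LNCaP-labelled libraries the values were 7.44 and 6.78 CPM and 7.09 and 5.48 CPM, which overlapped (-0.13 ± 0.21, adjusted p = 0.627).

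BID (ENSG00000015475, chr22:17734138-17774770, minus strand), which links death receptors to the mitochondrion once caspase-8 cleaves it, showed the reverse order. Levels were 20.1 and 21.2 CPM with R1881, 34.8 and 31.9 CPM with namoline, 41 and 40.6 CPM with TCE-5002, and 25.1 and 28.4 CPM with the combination. Every single-treatment library lay above every combination library, and these lay above both R1881 libraries. BID rose with namoline (log2 0.68 ± 0.13, adjusted p = 0.000968) and TCE-5002 (0.98 ± 0.13, adjusted p = 4.28e-05). It rose less with the combination (0.35 ± 0.13, adjusted p = 0.0398), a call lost without any 1 of the R1881, namoline or combination libraries. The combination was lower than TCE-5002 by -0.63 ± 0.13 (adjusted p = 0.000648). Against namoline it was lower by -0.33 ± 0.13 (adjusted p = 0.0416), which was lost with RLE scaling, without the filter, with DESeq2 and without any 1 of the same 6 libraries. The libraries labelled LNCaP held 20 and 27.9 CPM, then 20.5 and 22.8 CPM (-0.08 ± 0.15, adjusted p = 0.653).

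BAD (ENSG00000002330, chr11:64269830-64284704, minus strand), a BH3-only gene whose protein is switched off by survival-kinase phosphorylation, was above R1881 in each treated C4-2 library. The values were 25.5 and 27.4 CPM with R1881, 38.2 and 35.2 CPM with namoline, 35.7 and 51.6 CPM with TCE-5002, and 39.1 and 40.3 CPM with the combination. The TCE-5002 pair was the most spread of these. BAD rose with namoline (log2 0.46 ± 0.16, adjusted p = 0.0342), TCE-5002 (0.73 ± 0.16, adjusted p = 0.00215) and the combination (0.56 ± 0.16, adjusted p = 0.00795). After correction for GC content the namoline change was 0.22 (adjusted p = 0.0966) and the TCE-5002 change 0.38, and without TCE-5002 replicate 2 the latter was 0.45. The namoline call was also lost without any 1 of the R1881, namoline or combination libraries, and the combination call without R1881 replicate 1. Among the LNCaP-labelled libraries it fell from 31.7 and 32.7 CPM to 20.3 and 15.2 CPM (-0.81 ± 0.14, adjusted p = 1.05e-05), but after GC correction the change was -0.19 (adjusted p = 0.178). The antisense neighbour GPR137 covers 23.65% of BAD exon bases. GPR137 changed by -0.82 ± 0.21 under the C4-2 combination (adjusted p = 0.00459) and by -0.84 in the libraries labelled LNCaP, and its part in the BAD values was not tested.

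BCL2L11 (ENSG00000153094, chr2:111119378-111168447, plus strand), the gene of BIM, fell to a similar level in each treated group. The levels in C4-2 were 41.8 and 43.2 CPM with R1881, 32.3 and 29.1 CPM with namoline, 32.5 and 31.2 CPM with TCE-5002, and 29.5 and 31.7 CPM with the combination. All 6 treated libraries lay below both R1881 libraries and overlapped each other. The falls were log2 -0.48 ± 0.13, -0.42 ± 0.13 and -0.5 ± 0.13 (adjusted p of 0.00741, 0.0168 and 0.00389). The namoline call was lost without either R1881 library or namoline replicate 2, the TCE-5002 call without either R1881 library or in a fit of only the 4 libraries compared, and the combination call without combination replicate 1. Across the LNCaP-labelled libraries it fell from 46.5 and 41.7 CPM to 32.1 and 33.4 CPM (-0.37 ± 0.12, adjusted p = 0.00988), a call lost without LNCaP R1881 replicate 1. BCL2L11 and BAD both passed the test in all 4 comparisons against R1881, BCL2L11 with a fall each time and BAD with rises in C4-2 and a fall in the libraries labelled LNCaP.

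**Figure D3:**
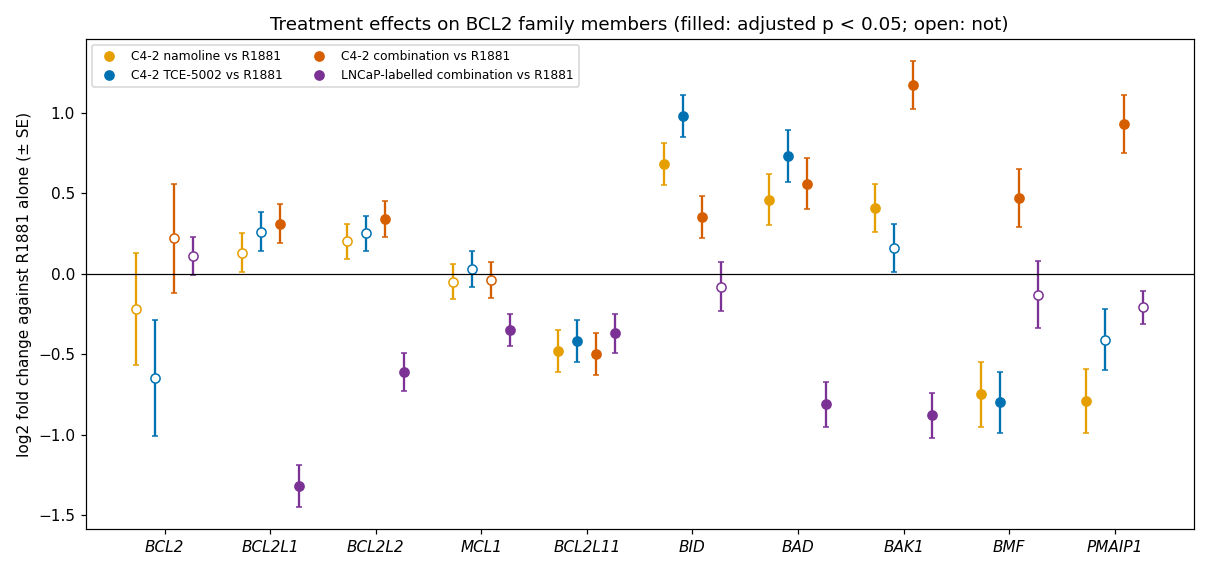
Log2 fold change against R1881 alone (± SE) of the 10 genes in the 3 treated C4-2 groups and in the LNCaP-labelled combination group, with filled points at adjusted p under 0.05. BAK1 (1.17) and PMAIP1 (0.93) are the highest C4-2 combination points, and BCL2L1 (-1.32) is the lowest point of the libraries labelled LNCaP.

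Counted over the set, the 3 C4-2 comparisons against R1881 share the same 2 control libraries. With namoline, 6 of 10 members passed the test (3 rose, 3 fell), against 35.1% of 17702 genes, and none reached 2-fold, against 12.1%. With TCE-5002, 4 passed (2 rose, 2 fell), against 36.8%, and none reached 2-fold, against 11.9%. With the combination, 8 passed (7 rose, BCL2L11 fell), against 50.6%, and 1 reached 2-fold, against 21.7%. Of all genes called with the combination, 49.3% rose. The median log2 change of the 10 members under the combination was 0.35, beside -0.03 over all genes, while the median absolute change was 0.41 beside 0.53. For namoline the median absolute changes were 0.43 and 0.40, and for TCE-5002 0.41 and 0.41. Without the filter on low counts 5 members passed in the combination comparison, against 23.0% of genes.

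The combination was also compared with each inhibitor alone. The combination differed from namoline in 4 members, with BAK1, BMF and PMAIP1 higher and BID lower, against 56.0% of genes, and 2 were at least 2-fold, against 27.5%. It differed from TCE-5002 in 5, with BCL2, BAK1, BMF and PMAIP1 higher and BID lower, against 55.3%, and 3 were at least 2-fold, against 26.1%. The BCL2 call (0.87 ± 0.36, adjusted p = 0.0493) rests on 17 to 41 counts per library and was lost with DESeq2, without the filter, in a fit of only the 4 libraries compared and without any C4-2 library other than TCE-5002 replicate 1, where it was 1.25. With GC correction 6 members passed against each inhibitor, where 62.5% of genes passed against namoline and 62.4% against TCE-5002. The members called against namoline included BCL2L1 (0.28, adjusted p = 0.00712) and BAD (0.40, adjusted p = 0.00148), and BAD against TCE-5002 was 0.25 (adjusted p = 0.0409). PMAIP1 was higher by 1.72 ± 0.19 than with namoline (adjusted p = 2.03e-06) and by 1.34 ± 0.19 than with TCE-5002 (adjusted p = 1.83e-05). Between the single inhibitors, edgeR called 0 of 10 members, 1 had an unadjusted p under 0.05 and DESeq2 called 0, against 18.5% of genes called and 5.01% at 2-fold. The differences, namoline minus TCE-5002, ran from -0.38 ± 0.2 (PMAIP1) to 0.42 ± 0.37 (BCL2), and a p that misses the threshold does not show that the compounds act alike.

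The cross of the inhibitors in C4-2 allowed the interaction to be tested, that is the combination change minus the sum of the single changes on the log2 scale. It passed for 5 members, against 53.6% of genes, and 3 of them were at least 2-fold, against 35.3%. PMAIP1 had the largest, since the single changes summed to -1.19 and the combination gave 0.93, an interaction of 2.13 ± 0.27 (adjusted p = 8e-06). BMF followed, with a sum of -1.55 and a combination change of 0.47 (interaction 2.02 ± 0.27, adjusted p = 1.49e-05). BID was on the other side, with a sum of 1.66 and a combination change of 0.35 (interaction -1.31 ± 0.19, adjusted p = 2.23e-05). These 3 calls held in every setting tried and with any library left out. BAK1 gave 0.6 ± 0.2 (adjusted p = 0.0216), lost without R1881 replicate 2, namoline replicate 1 or combination replicate 2. BAD gave -0.62 ± 0.22 (adjusted p = 0.027) but 0.02 after GC correction (adjusted p = 0.904), and the call was also lost without R1881 replicate 1, TCE-5002 replicate 2, namoline replicate 1 or either combination library (-0.84 to -0.35). BCL2 (1.09 ± 0.5) and BCL2L11 (0.4 ± 0.18) did not pass (adjusted p of 0.0777 and 0.0717). Without TCE-5002 replicate 1 both did (1.49 and 0.45, adjusted p of 0.0227 and 0.0184), and BCL2L11 also passed with RLE scaling (adjusted p = 0.0493) and with the replicate block (adjusted p = 0.0477). BCL2L1, BCL2L2 and MCL1 gave -0.09 ± 0.17, -0.12 ± 0.16 and -0.02 ± 0.16.

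**Figure D4:**
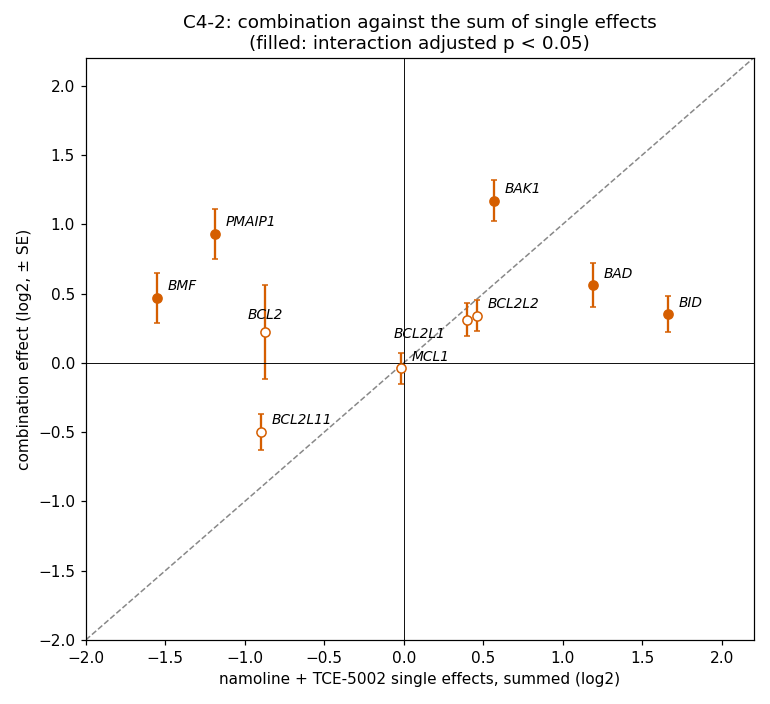
Combination change in C4-2 (vertical axis, log2 ± SE) against the sum of the single-inhibitor changes (horizontal axis, log2) for the 10 genes, with the dashed line marking equality and filled points an interaction at adjusted p under 0.05. PMAIP1, BMF and BAK1 lie above the line and BID and BAD below it.

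The 3 members called higher with the combination than with either inhibitor are shown by the sequence just upstream of their start. The sequences come from the RefSeq promoter table (GRCh38.p14), trimmed to the bases before the gene start in the count files' annotation, 5′ to 3′ on the gene's strand. Capitals mark GC boxes (GGGCGG or its reverse complement CCGCCC), the site read by SP1-type factors. PMAIP1 is chr18:59899746-59899947 (plus strand), BMF chr15:40108893-40109129 (minus strand) and BAK1 chr6:33580294-33580526 (minus strand).
PMAIP1: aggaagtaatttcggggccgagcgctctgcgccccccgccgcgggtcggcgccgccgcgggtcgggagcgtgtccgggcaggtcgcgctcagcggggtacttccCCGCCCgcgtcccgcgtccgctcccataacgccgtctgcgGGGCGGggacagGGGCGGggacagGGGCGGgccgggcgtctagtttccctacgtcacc
BMF: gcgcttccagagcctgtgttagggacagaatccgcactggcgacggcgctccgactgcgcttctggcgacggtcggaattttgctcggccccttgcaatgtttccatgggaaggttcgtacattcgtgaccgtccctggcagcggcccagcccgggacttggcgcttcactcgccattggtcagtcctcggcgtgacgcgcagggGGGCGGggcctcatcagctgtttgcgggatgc
BAK1: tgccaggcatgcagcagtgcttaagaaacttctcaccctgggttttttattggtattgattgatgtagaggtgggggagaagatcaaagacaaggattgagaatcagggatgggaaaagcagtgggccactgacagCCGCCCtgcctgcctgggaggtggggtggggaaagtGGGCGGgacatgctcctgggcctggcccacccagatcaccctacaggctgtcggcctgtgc

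PMAIP1 held 4 GC boxes in the 250 bases before its RefSeq start, BAK1 held 2 and BMF held 1, with those of PMAIP1 at 146, 106, 94 and 82 bases before that start. A promoter entry was found for 8 of the 10 members, and 6 of these 8 had at least 1 GC box within 250 bases, while 42.3% of 27305 promoters did. BID, which was lower with the combination than with either inhibitor, also held 4. Any part of the box in these changes was not tested. None of the 8 held the CRE (TGACGTCA, in 1.77% of promoters), the ATF4 and CEBP composite (TTGCATCA, 0.82%), the E2F sites (TTTCCCGC or TTTGGCGC, 1.96%), the FOXO site (GTAAACAA, 0.831%) or the androgen response core motif (AGAACA, 12.4%), on either strand. This says only that these letters are not in these windows.

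The genes most alike to the 3 members with the largest interaction were sought over the 8 C4-2 libraries among 9858 genes of at least 10 CPM, by Pearson r of log2(CPM + 0.5). These are descriptions over libraries that share treatments. PMAIP1 was most like ARFGAP3 (r = 0.996), DYM (0.992) and PLEKHF2 (0.989), and 821 genes reached 0.9. BMF was most like SMARCAL1 (0.993), H2AJ (0.99) and LINC00641 (0.988), with 405 genes at 0.9. BID was most like PFKM (0.984), PHB2 (0.982) and RPS28 (0.981), with 230 genes at 0.9. The shape of PMAIP1 was therefore shared by many genes.

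Other genes of the pathway were followed from 4 lists. Among other BCL2 family genes, 12 of 15 were tested in C4-2. Under the combination 5 rose and 3 fell, where 50.6% of all genes were called, with a median log2 change of 0.26 beside -0.03 over all genes. The largest rises were BBC3 (PUMA), a strong BH3-only gene, from a mean of 5.8 to 38.3 CPM (log2 2.69 ± 0.24, adjusted p = 4.14e-07), and BAX, the partner effector of BAK1, from 23.6 to 85.2 CPM (1.83 ± 0.14, adjusted p = 8.46e-08). The falls were led by BIK (-0.65 ± 0.22) and BOK (-0.6 ± 0.15). BBC3 averaged 6.07 CPM with namoline and 6.11 CPM with TCE-5002, and its interaction was 2.58 ± 0.35 (adjusted p = 1.61e-05). BOK, a less studied effector relative, ran the other way, rising to 45.3 CPM with TCE-5002 (log2 1.09 ± 0.14, adjusted p = 3.62e-05). In the LNCaP-labelled libraries 11 of this list were tested. Under the combination 4 rose and 3 fell, where 56.3% of all genes were called. HRK, a BH3-only gene, had the largest rise, from 33.5 to 75.3 CPM (1.23 ± 0.11, adjusted p = 4.35e-11). BBC3 had the largest fall, from 65.3 to 31.2 CPM (-1.01 ± 0.12, adjusted p = 1.07e-08).

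Among 21 apoptosome and caspase genes, all tested, 4 rose and 4 fell under the C4-2 combination, against 50.6% of all genes called. DIABLO (SMAC), a mitochondrial antagonist of caspase inhibitors, rose by 0.87 ± 0.15 (adjusted p = 0.000156), and BIRC6, an inhibitor of apoptosis, rose by 0.61 ± 0.11. BIRC5 (survivin), which is also a mitotic gene, fell from 60.4 to 12.5 CPM (-2.29 ± 0.2, adjusted p = 3.42e-07), and CASP9, the apoptosome's caspase, fell from 8.34 to 3.77 CPM (-1.17 ± 0.19, adjusted p = 0.000125). With namoline 8 rose and 3 fell, against 35.1% of all genes called, and with TCE-5002 5 rose and 5 fell, against 36.8%. XIAP, a direct caspase inhibitor, fell with namoline by -0.71 ± 0.11 (adjusted p = 0.000209).

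Of 12 death receptor genes, 10 were tested, and 4 rose and 2 fell under the C4-2 combination, against 50.6% of all genes called. FAS, a death receptor, went from 2.09 to 40 CPM (4.23 ± 0.25, adjusted p = 5.63e-09), and TNFRSF10A, a receptor for TRAIL, from 13.8 to 47.7 CPM (1.76 ± 0.13, adjusted p = 6.06e-08). The decoy receptor TNFRSF10C fell from 6.85 to 2.7 CPM (-1.36 ± 0.23, adjusted p = 0.000155), and CFLAR, an inhibitor of caspase-8 activation, by -0.95 ± 0.11 (adjusted p = 7.51e-06). Another decoy receptor, TNFRSF10D, went the other way, with means of 37.6 CPM with R1881 and 102 CPM with the combination. Within the LNCaP-labelled libraries none of the 10 rose and 7 fell, against 56.3% of all genes called. By edgeR the difference between the lines was 4.18 ± 0.26 for FAS (adjusted p = 9.86e-13) and 2.47 ± 0.23 for the decoy receptor TNFRSF10D (adjusted p = 1.55e-09).

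Among 28 partners and regulators, all tested, 11 rose and 6 fell under the C4-2 combination, against 50.6% of all genes called, led by PIM1, a kinase known to phosphorylate BAD, from 3.62 to 54.9 CPM (3.91 ± 0.2, adjusted p = 1.84e-09). ATF3, a stress-induced transcription factor, rose from 123 to 1860 CPM (3.9 ± 0.12, adjusted p = 1.48e-11). MYC fell by -1.04 ± 0.11 (adjusted p = 2.41e-06), and DYNLL1, a dynein light chain, by -0.76 ± 0.12 (adjusted p = 0.000119). DDIT3 (CHOP), a stress factor known to regulate several BH3-only genes, fell with namoline from 375 to 18.9 CPM (-4.33 ± 0.13, adjusted p = 1.35e-11) and with TCE-5002 to 95.6 CPM (-1.97 ± 0.12, adjusted p = 6.14e-08). With the combination DDIT3 averaged 814 CPM. That was higher than with namoline by 5.42 ± 0.14 (adjusted p = 3.98e-13) and than with TCE-5002 by 3.06 ± 0.12 (adjusted p = 1.15e-10). Its interaction was the largest on the list (7.39 ± 0.18, adjusted p = 3.73e-13).

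The combination in the libraries labelled LNCaP gave a different picture from that in C4-2. There, 6 of 10 members passed the test and all 6 fell, namely BCL2L1, BCL2L2, MCL1, BCL2L11, BAD and BAK1, against 56.3% of 17565 genes called, and 1 reached 2-fold, against 18.7%. Of all genes called in that comparison, 49.8% rose. The 10 members had a median log2 change of -0.36, beside 0.0 over all genes. The count was also 6 without the library with the namoline-only heading, where BAK1 was -1.08 ± 0.14 and BAD -1.03 ± 0.15.

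The difference itself, the C4-2 combination change minus that in the libraries labelled LNCaP, passed for 5 members, against 47.7% of genes. All 5 were positive, while 45.7% of all genes called were. Of the 5 members, 4 were at least 2-fold, against 25.4%. They were BAK1 (2.0 ± 0.17, adjusted p = 5.45e-10), BCL2L1 (1.58 ± 0.14, adjusted p = 1.28e-09), BAD (1.32 ± 0.18, adjusted p = 6.03e-07) and PMAIP1 (1.09 ± 0.15, adjusted p = 6.94e-07), with BCL2L2 at 0.9 ± 0.13 (adjusted p = 2.86e-06). The median over all genes in this contrast was -0.1, to which these values are to be read. Without the library with the namoline-only heading they were 2.18, 1.61, 1.52, 1.02 and 0.88 in the same order, and after GC correction BAD was 0.83. MCL1 (0.26 ± 0.11, adjusted p = 0.056) and BMF (0.55 ± 0.25, adjusted p = 0.0708) did not pass. Both did with RLE scaling, and MCL1 also with DESeq2 and GC correction. Without the library with the namoline-only heading MCL1 was 0.2 and BMF 0.72. Without LNCaP combination replicate 2 they were 0.31 and 0.37. BID gave 0.38 ± 0.2 (adjusted p = 0.117) and passed with GC correction (0.46, adjusted p = 0.0285). BCL2L11 gave -0.18 ± 0.15, and BCL2 0.04 ± 0.28.

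With R1881 alone the lines differed in 5 members, against 76.9% of 19763 genes, and 2 were at least 2-fold, against 50.4%. BCL2 was lower in C4-2 by log2 -4.13 ± 0.17 (adjusted p = 1.12e-17) and PMAIP1 by -3.94 ± 0.11 (adjusted p = 1.59e-21). MCL1 (-0.41 ± 0.08, adjusted p = 4.58e-05) and BAK1 (-0.56 ± 0.12, adjusted p = 0.000189) were also lower, and BCL2L1 was higher (0.76 ± 0.1, adjusted p = 9.22e-08). BCL2L2, BCL2L11, BID, BAD and BMF lay between -0.26 and 0.23 and did not pass. BMF passed with GC correction (0.41, adjusted p = 0.0245), BAD with RLE scaling (-0.31, adjusted p = 0.0223) and without either LNCaP combination library, and BID without LNCaP R1881 replicate 1 (-0.43, adjusted p = 0.0115). PMAIP1 thus held 13.7% and 11.7% of the BH3-only sum per kilobase in C4-2 and 67.3% and 65.7% in the libraries labelled LNCaP. There BAD was 47.3% and 49.2%, and 19.3% and 20%. Given the marker values above, these differences describe the libraries as labelled.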

How the data were processed

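RNA from 12 cultures, 2 biological replicates per group, was sequenced in paired ends. According to the submitters' processing notes and the file headers, the authors trimmed reads with Trim Galore, aligned them to GRCh38 with STAR and made the deposited raw counts per gene with featureCounts 1.5.0-p1 and Ensembl release 83, without strand and with its default of leaving out fragments that fit more than 1 gene. Library totals were 14791602 to 20690819, and counting error applies only to these. From the counts, edgeR 4.0.16 (R 4.3.3) with TMM scaling, filterByExpr and the robust quasi-likelihood test was run on the 8 C4-2 libraries, the 4 LNCaP-labelled libraries and, for contrasts between lines, 8 libraries, and p-values were adjusted over every tested gene by the Benjamini-Hochberg method. The fits were tested on simulated data, recovering 78.5% to 91.0% of 200 changed genes by comparison. Each of these was changed by 2 on the log2 scale. Most member changes here were smaller, and recovery of smaller changes was not tested. RLE scaling, no filter, DESeq2 1.42.0, GC correction, a replicate block, smaller fits and leaving out each library were alternatives. Replicate numbers were not used as pairs in the main fits. Differences between same-numbered replicates correlated at -0.09 to 0.1 between groups, which does not show that the samples were unpaired. A replicate block raised the genes called in every C4-2 comparison, for namoline against R1881 from 6218 to 7215. It lowered them in the other comparisons, for the LNCaP-labelled combination from 9893 to 9105. All 10 members are named. From other lists, the 2 largest rises and falls past the test with a group of at least 5 CPM were eligible for naming. The members and lists were chosen with earlier results of these data known.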

Additional observations from a re-analysis of the deposited data

Results flagged for a closer look

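The combination effect differed between C4-2 and the LNCaP-labelled libraries for 5 members, by edgeR's test of the difference itself, and these were flagged for passing it. The count of 5 out of 10 lies near the share over all genes, 47.7% of 19763. The median absolute difference was 0.73 for the members and 0.78 over all genes. The log2 difference was 2.0 for BAK1, 1.58 for BCL2L1, 1.32 for BAD, 1.09 for PMAIP1 and 0.9 for BCL2L2. BAK1, BCL2L1, BCL2L2 and BAD passed the test as rises in C4-2 and as falls in the LNCaP-labelled libraries. The C4-2 calls of BCL2L1, BCL2L2 and BAD were lost when certain single libraries were left out, and the BAD fall was -0.19 (adjusted p = 0.178) after GC correction. PMAIP1 rose in C4-2, and in the LNCaP-labelled libraries it was -0.21 (adjusted p = 0.0669), or -0.40 (adjusted p = 7.8e-05) after GC correction. Groups of 2 libraries are too small for a test of an outlying library. The C4-2 TCE-5002 pair differed most, with a chi-square of 27.9 per gene between replicates against 3.61 to 9.76 in the other pairs. Without either of its libraries, namoline against R1881 had 8506 or 8566 called genes in place of 6218.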

How the results depend on the processing

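Of the 48 member calls in 10 comparisons, 30 were kept under every setting tried and with any library left out. Without the filter on low counts the combination against R1881 in C4-2 had 5 called members in place of 8. The share of all genes called was 23.0% in place of 50.6%. With GC correction, alone or with the replicate block, namoline against TCE-5002 had 2 in place of 0. There the share of all genes called was 31.6% with GC correction alone and 32.4% with both, in place of 18.5%. GC correction, alone or with the replicate block, turned the BAD difference between the combination and TCE-5002 to 0.25 and its interaction to 0.02, and took the BAK1 difference between the lines with R1881 from -0.56 to -0.36; the cause was not tested. With the replicate block alone the counts were 6 for namoline, 5 for TCE-5002, 8 for the combination and 6 for the interaction. The shares of all genes called were 40.8%, 42.2%, 55.2% and 57.4% in the same order. Leaving out 1 library gave 1 to 7 members for namoline (1 and 3 without R1881 replicates 1 and 2, 3 and 2 without namoline replicates 1 and 2), 3 to 7 for TCE-5002 (7 without TCE-5002 replicate 1) and 3 to 8 for the combination (3 to 5 without any R1881, namoline or combination library, 8 without either TCE-5002 library). It gave 3 to 5 for the combination against namoline, 4 to 6 against TCE-5002, 0 to 2 for namoline against TCE-5002 (1 and 2 without TCE-5002 replicates 1 and 2) and 3 to 7 for the interaction (3 without namoline replicate 1 or combination replicate 2). For the LNCaP-labelled libraries it gave 5 to 7, for the difference between lines 5 to 7, and for R1881 alone 5 to 6. Leaving 1 library in a group assumes that it varies like the others. The share of all genes called also moved with the library left out, so these counts are not results about the members alone. With 17 to 45 counts per C4-2 library, depth limits BCL2 most.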
